A study of Mus musculus with 6 samples.

Results

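Genes that make, sense, store and export cholesterol were compared in Th17 cells that had been cultured with or without desIgf1, a shortened form of insulin-like growth factor 1 with weak affinity for IGF-binding proteins. The set holds 33 of the 39179 genes in the count files, chosen by name for their place in the pathway and matched by symbol. It comprises 20 synthesis enzymes, 4 regulators of the sterol-responsive transcription factor SREBP2, 3 genes of sterol transport, 1 of esterification, and 5 genes of the liver X receptors (LXRs) and efflux. All 33 passed the filter on low counts, as did 13846 genes in all.

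The 3 desIgf1 libraries and the 3 control libraries came from naive CD4+ T cells of C57BL/6 mice, with spleen as the labelled tissue. All of the mice carried the IL17a/hCD2, Ifng/Thy1.1 and Foxp3/GFP reporters. Both groups received Th17 conditions for 5 days. These comprised IL6 at 20 ng/mL and TgfB at 2.5 ng/mL, blocking anti-Ifng and anti-IL4 at 10 µg/mL each, stimulation by 5 µg/mL of soluble anti-CD3, and irradiated CD4-depleted splenocytes as partner cells. The treated group also received 30 ng/mL of desIgf1. The treatment text of the control samples lists desIgf1 as well, so the groups rest on the titles and on the series design. Cells positive for the IL17a reporter and negative for the other reporters were sorted before RNA was isolated. The labels do not give age or sex, nor whether libraries of a group came from separate mice or cultures, so the p-values describe only how far these libraries scatter, which may be technical.

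Cells build cholesterol from acetyl-CoA through mevalonate, isoprenoid diphosphates and squalene. When membrane sterol is low, SCAP carries SREBP2 to the Golgi for cleavage, and the released factor, which works together with NF-Y at promoters, turns on the enzymes of the route. When sterol is plentiful, INSIG proteins hold SCAP back, and oxysterols activate LXRs, which turn on the exporters ABCA1 and ABCG1. T cells raise sterol synthesis when they are activated and grow, and sterol intermediates of the route can bind RORγt, the transcription factor that defines Th17 cells.

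Promoter stretches of 4 synthesis genes are shown to set side by side the letters upstream of genes that differed between the groups (Hmgcs1, Mvd) and of genes that did not pass any test (Ebp, Lbr). Each is the 250 bases before the RefSeq start site, in build GRCm38.p6, written 5′ to 3′ on the strand of the gene. Capitals mark CCAAT, the core of the NF-Y site, on either strand (ATTGG on the other), and the sterol response element TCACNCCAC.
Hmgcs1, chr13:119690101-119690350, plus strand: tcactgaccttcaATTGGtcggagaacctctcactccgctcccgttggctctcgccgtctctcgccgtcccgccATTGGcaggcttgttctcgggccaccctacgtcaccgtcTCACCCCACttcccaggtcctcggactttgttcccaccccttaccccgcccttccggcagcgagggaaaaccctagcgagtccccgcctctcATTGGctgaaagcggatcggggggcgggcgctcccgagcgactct
Mvd, chr8:122443423-122443672, minus strand: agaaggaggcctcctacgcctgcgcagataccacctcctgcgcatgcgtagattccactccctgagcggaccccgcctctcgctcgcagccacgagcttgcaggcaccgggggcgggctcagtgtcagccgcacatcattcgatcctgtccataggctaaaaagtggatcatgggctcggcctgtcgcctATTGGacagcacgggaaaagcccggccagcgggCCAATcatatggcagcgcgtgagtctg
Ebp, chrX:8193513-8193762, minus strand: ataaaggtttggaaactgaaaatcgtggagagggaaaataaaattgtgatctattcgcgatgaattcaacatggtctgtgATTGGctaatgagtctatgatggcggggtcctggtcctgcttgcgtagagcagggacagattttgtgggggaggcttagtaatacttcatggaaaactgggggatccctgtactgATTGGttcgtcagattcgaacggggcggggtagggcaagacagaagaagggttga
Lbr, chr1:181842402-181842651, minus strand: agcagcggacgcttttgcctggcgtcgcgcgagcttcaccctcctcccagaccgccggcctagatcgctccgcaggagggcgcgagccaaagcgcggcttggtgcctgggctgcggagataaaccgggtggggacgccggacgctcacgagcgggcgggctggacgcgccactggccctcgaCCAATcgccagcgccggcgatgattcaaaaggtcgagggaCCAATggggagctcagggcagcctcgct
CCAAT was common in the promoters of the enzymes, whether or not their transcripts differed. RefSeq promoter windows of 300 bases, 250 before and 50 after a start site, were matched by symbol for 27 of the 33 genes, in 34 windows. CCAAT stood on either strand in 16 of 17 synthesis genes with a window, against 11096 of 27025 genes in the whole table (41.1%). By window, it was in 16 of 20 for these enzymes and in 37.4% of all 32851 windows. The exception was Acat2. Among the other 10 members with a window, 6 held CCAAT, namely Insig1, Insig2, Mylip, Npc2, Soat1 and Srebf2. Mvk held the most matches, 5, followed by Hmgcs1 and Nsdhl with 4 each. For Hmgcs1, 1 of the matches is at positions 10 to 14 from the start site, beyond the stretch shown above. Msmo1, Hsd17b7, Ggps1, Insig2 and Mylip held 3 each, and Mvd, Ebp, Lbr, Dhcr7, Idi1 and Npc2 2 each. The remaining genes with a match held 1. The strict sterol response element was found in 1 member, Hmgcs1, at positions -137 to -129 from the start site, against 1.44% of all genes with a window. The E-box CACGTG, which SREBPs can also bind, was in 3 of the 17 synthesis genes (Dhcr7, Hsd17b7 and Sc5d), in 3 of the other 10 members (Abca1, Insig1 and Scap) and in 8.09% of all genes with a window. The LXR half-site pair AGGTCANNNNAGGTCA matched none of the 27 members with a window and 4 of 27025 genes in the whole table. Fdps, Fdft1, Sqle, Stard4, Npc1 and Abcg1 were not analysed here for promoters. No match says only that these letters are not in that window.

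Gene counts summed to 34567899 to 47929948 per library. Libraries with the same number in both groups deviated together from their group means, with a correlation across genes of 0.59, 0.32 and 0.55 for numbers 1, 2 and 3, so each number is treated as a pair. The labels state no pairing, and this choice rests on the same counts that were tested. Values from an edgeR fit in which the number entered as a block are given beside those of the fit on group alone. Cd4 was at 1657 to 1950 CPM (counts scaled to a fixed library total with TMM factors) in all 6 libraries, and summed T cell markers reached 4689 to 5450 CPM. Summed markers of B cells were at 56.8 to 97.8 CPM with desIgf1 and 69.1 to 174.9 in controls, most of it Ighm, while dendritic cell markers stayed at or below 3.31 CPM with 4 of 8 at 0 in every library, NK and CD8 T cell markers at or below 14.9 CPM with 2 of 6 at 0, and neutrophil and erythroid markers at or below 0.573 CPM. None of the 6 marker lists differed between the groups in a two-sided exact permutation test (p = 0.2 to 0.7), which cannot go below 0.1 with 3 against 3.

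**Figure D1:**
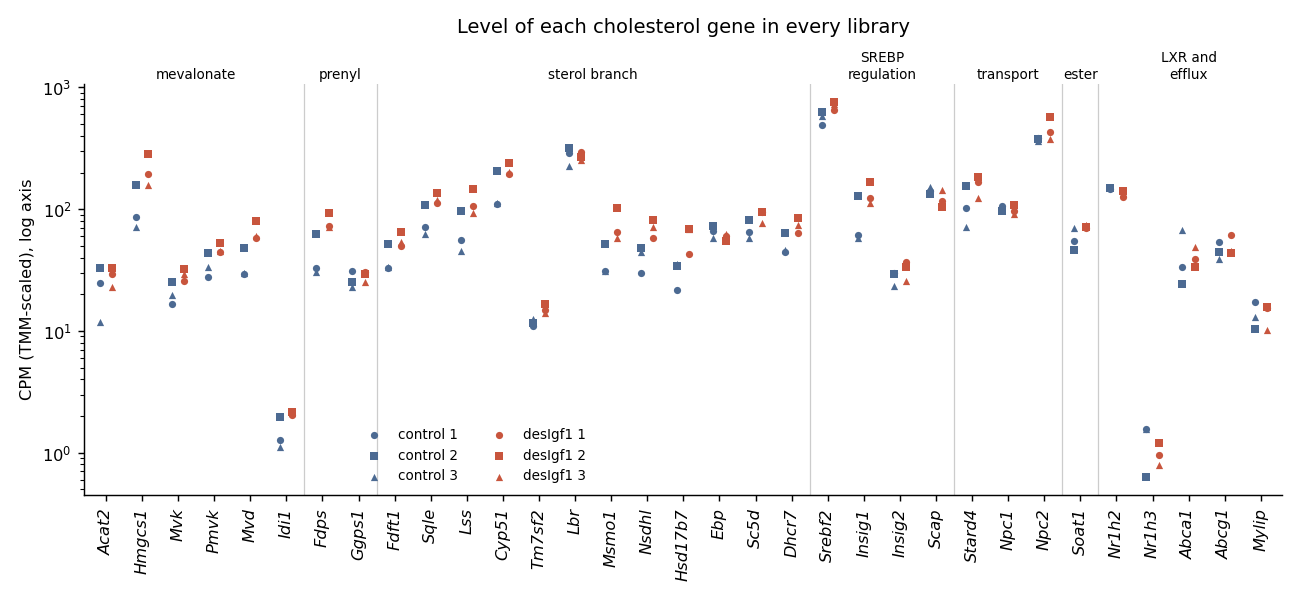
Level of each of the 33 genes (x axis, grouped by role) in every library, as TMM-scaled CPM on a log axis, with controls in blue, desIgf1 libraries in red and 1 symbol per replicate number. Most synthesis enzymes have the red points above the blue circle and triangle, with the blue square (control 2) the highest blue point for 17 of the 20. The LXR and efflux genes overlap except Nr1h2, where every red point is below every blue point.

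With desIgf1, 4 synthesis enzymes rose in edgeR when the replicate number was a block, namely Hmgcs1, Mvd, Msmo1 and Hsd17b7, each close to 2-fold. In that fit 0 of the 33 genes fell. In all tested genes, this fit called 0.181% higher and 0.137% lower. Without the block, edgeR called 0 of the 33 genes, as it called 0% of all genes, and limma voom called 0. At an unadjusted p under 0.05 the fit without the block had 16 of the 33 higher and 0 lower, against 4.75% and 3.42% of all tested genes (8.16% in either direction). With the block these were 19 and 0, against 9.02% and 5.29%. DESeq2 without the block called 3 higher and 0 lower, against 0.819% and 0.671% of all genes with an adjusted p in that tool. The 3 genes were Hsd17b7, Mvd and Nsdhl. DESeq2 with the block called 14 higher and 0 lower, against 3.07% and 1.58%. The 14 were Hmgcs1, Mvk, Mvd, Fdps, Fdft1, Sqle, Lss, Cyp51, Msmo1, Nsdhl, Hsd17b7, Dhcr7, Insig1 and Stard4. The median log2 fold change of the 20 synthesis enzymes was 0.53 and that of all tested genes -0.005.

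Hmgcs1 makes HMG-CoA, the precursor of mevalonate (GRCm38 chromosome 13, 119690379 to 119708260, plus strand). Controls 1, 2 and 3 had 85.8, 159 and 70.8 CPM, and the desIgf1 libraries of the same numbers had 193, 284 and 158 CPM. All 3 desIgf1 libraries stood far above controls 1 and 3, but control 2 reached the lowest desIgf1 library, so the groups overlapped. Within numbers the log2 difference was 1.17, 0.84 and 1.16. Hmgcs1 rose 2.08-fold with the block (log2 1.06 ± 0.10 SE, edgeR adjusted p = 0.0390), and had an adjusted p of 0.527 without it (log2 1.011 ± 0.34).

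Mvd makes isopentenyl diphosphate in the last step of the mevalonate route (chromosome 8, 122433601 to 122443422, minus strand). Its level was 29.3, 48.1 and 29.7 CPM in controls and 57.8, 79.7 and 60.3 CPM with desIgf1. Every desIgf1 library was above every control, and number 2 was the highest of its group on both sides. Mvd rose 1.88-fold with the block (log2 0.91 ± 0.10, edgeR adjusted p = 0.0475, and 0.402 without the block).

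Of the other mevalonate enzymes, Mvk and Pmvk, the kinases that phosphorylate mevalonate in turn, did not overlap between the groups. Mvk was at 16.7, 25.2 and 19.7 CPM in controls and 25.9, 32.0 and 29.1 CPM with desIgf1. With the block it did not pass in edgeR (log2 0.51 ± 0.12, edgeR adjusted p = 0.156) but passed in DESeq2 (adjusted p = 0.0389). Pmvk was at 27.9, 44.0 and 33.5 CPM and at 44.1, 52.5 and 45.2 CPM (blocked adjusted p = 0.184). Acat2, which condenses acetyl-CoA at the start of the route, had overlapping groups, with 24.6, 33.003 and 11.9 CPM in controls and 29.4, 32.6 and 22.99 CPM with desIgf1. Its log2 fold change without the block was 0.29, with a 95% interval from -0.50 to 1.08, and control 3 alone was far below the other libraries. Idi1, the isomerase that follows Mvd, was the lowest enzyme of the 20 at 1.12 to 1.97 CPM in controls and 2.05 to 2.14 CPM with desIgf1. Per length it was at 0.415 and 0.601 CPM per kilobase of exon, against 22.9 and 46.2 for Hmgcs1. Alignments that were not unique are left out of the counts, and their part in the level of Idi1 was not tested.

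In the isoprenoid branch the groups separated for Fdps and overlapped for Ggps1. Fdps makes farnesyl diphosphate, which feeds both sterols and protein prenylation, and was at 32.7, 61.9 and 30.2 CPM in controls and 72.4, 93.0 and 71.9 CPM with desIgf1. Its groups did not overlap, and the blocked fit gave a log2 fold change of 0.99 ± 0.15, short of the threshold (edgeR adjusted p = 0.0739). DESeq2 with the block called it (adjusted p = 2.3e-06). Exons of Fdps share 26.7% of their bases with the predicted gene Gm43738 on the same strand, and reads there count for neither gene if treated as ambiguous. Ggps1, which makes geranylgeranyl diphosphate for prenylation, was at 22.9 to 31.1 CPM in controls and 25.2 to 30.3 CPM with desIgf1, with a log2 fold change of 0.09 and a 95% interval from -0.26 to 0.44.

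In the sterol branch, Msmo1 and Hsd17b7 rose with desIgf1. Both act, together with Nsdhl, in removing the methyl groups at carbon 4 of the sterol ring. Msmo1, the C4 methyl oxidase (chromosome 8, 64718139 to 64733792, minus strand), was at 30.9, 51.8 and 31.0 CPM in controls and 65.1, 102 and 57.7 CPM with desIgf1. The lowest desIgf1 library was above the highest control, and Msmo1 rose 1.98-fold with the block (log2 0.99 ± 0.09, edgeR adjusted p = 0.0332, and 0.452 without the block).

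Hsd17b7, the 3-keto reductase of the same complex (chromosome 1, 169949535 to 169969241, minus strand), was at 21.7, 34.1 and 35.4 CPM in controls and 43.2, 68.7 and 68.4 CPM with desIgf1. Its difference was nearly the same in each number, with log2 values of 0.99, 1.008 and 0.95. It rose 1.98-fold with the block (log2 0.98 ± 0.09, edgeR adjusted p = 0.0332, and 0.396 without the block). Nsdhl, the decarboxylating dehydrogenase of the complex, lies on the X chromosome and was at 29.8, 48.3 and 44.4 CPM in controls and 57.9, 81.0 and 70.7 CPM with desIgf1. The groups did not overlap, and Nsdhl came just short of the threshold with the block in edgeR (log2 0.79 ± 0.10, edgeR adjusted p = 0.0522, DESeq2 with the block adjusted p = 6.49e-06). In the blocked edgeR fit all 3 genes of the C4 demethylation complex thus had log2 fold changes from 0.79 to 0.99.

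The blocked calls did not all hold when a pair was left out. Without both libraries numbered 1, Hmgcs1 (edgeR adjusted p = 0.0365) and Hsd17b7 (0.0460) passed, while Msmo1 (0.0533) and Mvd (0.0872) did not. Without both libraries numbered 2 or 3, all 4 genes passed, among 17 and 10 of the 33 genes called higher, where 2.41% and 4.68% of all tested genes were called higher, against 0.335% without number 1. Those fits have 1 residual degree of freedom, and the log2 fold changes of the 4 genes stayed between 0.86 and 1.17 in them.

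**Figure D2:**
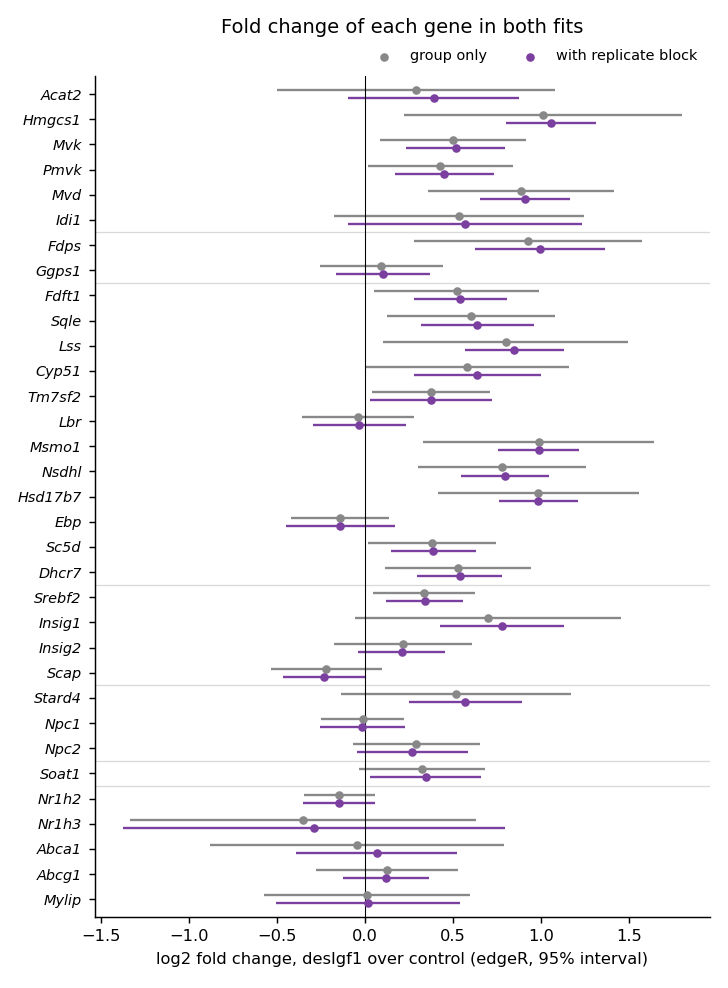
Log2 fold change of desIgf1 over control for each of the 33 genes from edgeR, with 95% intervals, in grey for the fit with group alone and in purple with the replicate number as a block. The estimates are alike in both fits and the intervals of most synthesis enzymes are narrower with the block, as for Hmgcs1 at 1.011 and 1.06.

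The enzymes that carry farnesyl diphosphate through squalene to lanosterol had values in the same direction without a call in edgeR. Fdft1 makes squalene and was at 32.97, 51.3 and 33.3 CPM in controls and 49.7, 65.3 and 53.6 CPM with desIgf1. Sqle adds the epoxide, a rate-limiting step, and was at 71.2, 108 and 62.1 CPM and at 112, 136 and 118 CPM, with no overlap. Lss closes the ring and was at 55.6, 97.4 and 45.7 CPM in controls and 106, 147 and 92.7 CPM with desIgf1 (log2 0.85 ± 0.11 with the block, edgeR adjusted p = 0.0577). In each of these 3 genes control 2 was the highest control and desIgf1 library 2 the highest of all.

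Cyp51, which removes the methyl group at carbon 14, was at 110, 206 and 111 CPM in controls and 195, 240 and 203 CPM with desIgf1 (blocked adjusted p = 0.165). Tm7sf2 and Lbr are alternative reductases for the next step, and neither passed in edgeR with or without the block. Tm7sf2 was at 10.98, 11.5 and 12.5 CPM in controls and 14.9, 16.5 and 13.95 CPM with desIgf1, with no overlap (log2 0.38, 95% interval 0.04 to 0.71 without the block, edgeR adjusted p = 0.570). Lbr, which also anchors chromatin at the nuclear envelope, was at 291, 316 and 228 CPM and at 292, 266 and 253 CPM, a log2 fold change of -0.04 with an interval from -0.36 to 0.27. Per length Lbr was the more abundant of the pair, at 58.5 CPM per kilobase in controls against 2.65 for Tm7sf2. Exons of Tm7sf2 share 12.1% of their bases with Vps51 on the same strand, and reads there count for neither gene if treated as ambiguous. Whether the fold changes of the pair differ was not tested.

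Of the final steps, Ebp, the sterol isomerase on the X chromosome, stood out by not being higher. It was at 65.7, 72.7 and 57.7 CPM in controls and 59.9, 54.6 and 63.0 CPM with desIgf1, a log2 fold change of -0.14 with an interval from -0.42 to 0.13. Sc5d, a desaturase, was at 57.8 to 81.6 CPM in controls and 76.3 to 95.6 CPM with desIgf1 (blocked adjusted p = 0.184). Dhcr7, which forms cholesterol from 7-dehydrocholesterol, was at 44.2, 64.0 and 46.3 CPM in controls and 63.1, 85.3 and 74.3 CPM with desIgf1. Control 2 lay just above the lowest desIgf1 library. With the block Dhcr7 did not pass in edgeR (log2 0.54 ± 0.10, edgeR adjusted p = 0.111) but passed in DESeq2 (adjusted p = 0.00671).

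Over the 20 enzymes, 16 were higher in all 3 numbers and 0 were lower in all 3, where 20.9% and 17.2% of all tested genes were so. All 3 desIgf1 libraries lay above all 3 controls in 10 of the 20 enzymes, against 7.31% of all tested genes. The overlap in the others came largely from control 2, which was the highest control for 17 of the 20 enzymes, as desIgf1 library 2 was the highest of its group for 17 of the 20. Library 2 was the highest of its group for 34.3% of all tested genes in controls and 31.9% with desIgf1. Setting control 2 aside, a choice made after its values were seen, 16 of the 20 enzymes had all desIgf1 libraries above controls 1 and 3, against 13.5% of all tested genes. Leaving out a control cannot lower such a count. Control 2 was picked for its high values in these enzymes, not in all genes, so the 2 shares are not alike.

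**Figure D3:**
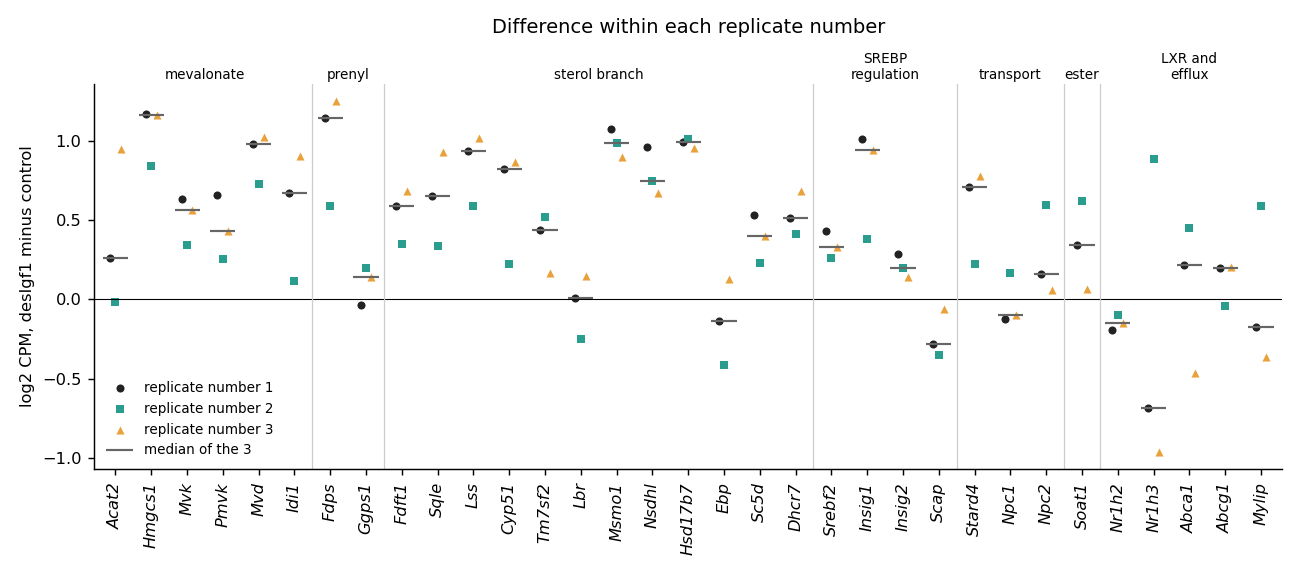
Difference in log2 CPM, desIgf1 minus control, within each replicate number for each of the 33 genes, with the median of the 3 as a bar. Most enzymes lie above 0 in all 3 numbers, with number 2 (green squares) often the lowest, while for Nr1h3, Abca1 and Mylip number 2 is the highest.

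Among the regulators, Srebf2 itself was the most abundant of the 33 genes per length, at 78.8 CPM per kilobase in controls and 99.3 with desIgf1. In CPM it was at 487, 629 and 583 in controls and 655, 753 and 732 with desIgf1. All desIgf1 libraries were above all controls by a small margin, and the log2 fold change of 0.34 ± 0.09 did not pass with the block (edgeR adjusted p = 0.189). Insig1, which retains SCAP and is itself an SREBP target, was at 61.7, 129 and 57.9 CPM in controls and 124, 168 and 111 CPM with desIgf1. Its log2 difference was 1.010, 0.38 and 0.94 in numbers 1 to 3. With the block Insig1 did not pass in edgeR (log2 0.78 ± 0.14, edgeR adjusted p = 0.117) but passed in DESeq2 (adjusted p = 0.000339). Insig2, the paralog with the same role, was at 29.9, 29.5 and 23.4 CPM in controls and 36.5, 33.8 and 25.9 CPM with desIgf1, with a log2 fold change of 0.21 and an interval from -0.18 to 0.61. Scap, the escort protein, was lower in all 3 numbers, at 141, 133 and 151 CPM in controls and 116, 104 and 145 CPM with desIgf1 (log2 -0.23 ± 0.10 with the block, edgeR adjusted p = 0.354).

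Of the transport and storage genes, Stard4, a cytosolic sterol carrier and SREBP target, was at 102, 156 and 71.7 CPM in controls and 166, 182 and 123 CPM with desIgf1. Its differences by number, 0.71, 0.22 and 0.78, had the order seen in most enzymes. With the block Stard4 did not pass in edgeR (log2 0.57 ± 0.13, edgeR adjusted p = 0.165) but passed in DESeq2 (adjusted p = 0.0136). Npc1, which exports cholesterol from lysosomes, was at 97.0 to 106 CPM in controls and 91.9 to 109 CPM with desIgf1, and its log2 fold change of -0.01 had an interval from -0.25 to 0.22. Npc2, its soluble partner, was at 365 to 384 CPM in controls and 428, 573 and 380 CPM with desIgf1 (blocked adjusted p = 0.403). Soat1, which esterifies cholesterol for storage, was at 55.2, 46.5 and 70.2 CPM in controls and 69.9, 71.5 and 73.6 CPM with desIgf1, a log2 fold change of 0.34 ± 0.13 with the block (edgeR adjusted p = 0.315).

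No gene of the LXR and efflux group passed edgeR or DESeq2, with or without the block, and the 5 genes had no common direction. The median log2 fold change was -0.05 without the block and 0.02 with it. By number the median was -0.17, 0.45 and -0.36, the value of Mylip in numbers 1 and 3 and of Abca1 in number 2. The exporters did not all follow this median, with log2 differences by number of 0.22, 0.45 and -0.46 for Abca1. For Abcg1 they were 0.19, -0.04 and 0.20. At an unadjusted p under 0.05, 0 of the 5 were higher or lower in either edgeR fit.

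Abca1, the exporter that loads lipid-poor apolipoproteins (chromosome 4, 53030787 to 53159895, minus strand), was at 33.5, 24.4 and 67.5 CPM in controls and 39.0, 33.4 and 48.9 CPM with desIgf1. Control 3 was the highest of all libraries and control 2 the lowest, so the groups overlapped fully, and the log2 fold change of -0.05 had an interval from -0.88 to 0.79. Without control 3 it was 0.48. Abcg1, which exports to mature lipoproteins (chromosome 17, 31057675 to 31117988, plus strand), was at 53.4, 44.8 and 39.3 CPM in controls and 61.2, 43.5 and 45.2 CPM with desIgf1, with an interval from -0.28 to 0.53 around 0.12. Mylip, an LXR-induced ubiquitin ligase that removes lipoprotein receptors, was at 17.3, 10.3 and 13.001 CPM and at 15.3, 15.6 and 10.1 CPM, with an interval from -0.57 to 0.59 around 0.01.

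The receptors themselves differed in abundance. Nr1h2 (LXRβ) was at 44.4 CPM per kilobase in controls and Nr1h3 (LXRα) at 0.499. Nr1h2 was at 145, 150 and 151 CPM in controls and 127, 140 and 136 CPM with desIgf1. All desIgf1 libraries were below all controls, as for 6.18% of all tested genes, but the log2 fold change was small and missed the threshold (-0.15 ± 0.09, edgeR adjusted p = 0.652, with 0.467 in the blocked fit). Nr1h3 was at 1.56, 0.633 and 1.58 CPM in controls and 0.951, 1.21 and 0.786 CPM with desIgf1, with an interval from -1.33 to 0.63. Macrophages express Nr1h3 and Abca1 strongly, and 12 macrophage and monocyte markers summed to 151 to 178 CPM with desIgf1 and 93.4 to 181 CPM in controls. Control 3, where Abca1 was highest, had the highest Ctss (175 CPM), which made up most of that sum, and the highest Csf1r (0.515 CPM). It had the lowest Lyz2 (1.403 CPM), Cd68 (2.15 CPM), Mpeg1 (0.372 CPM), Cd14 (0.115 CPM) and Fcgr3 (0.143 CPM). For Tyrobp and Fcer1g it was neither the highest nor the lowest. C1qb was at 0 in every library and Adgre1 at or below 0.142 CPM. In bulk libraries fewer cells of a type and less RNA per cell cannot be told apart.

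Set side by side, the synthesis median exceeded the efflux median by 0.58 on the log2 scale. In these differences the efflux median, over 5 genes, is the value of a single gene. It was that of Abca1 here and in number 2, and that of Mylip, which is not an exporter, in numbers 1 and 3. The synthesis median was 0.65, 0.35 and 0.78 in numbers 1, 2 and 3, and 18, 17 and 20 of the 20 enzymes were higher in them. Of the 5 LXR and efflux genes 2, 3 and 1 were higher. Of all 13846 tested genes, 6921, 7468 and 6960 were higher in numbers 1 to 3. The gap between the medians was 0.83 and 1.14 in numbers 1 and 3 but -0.11 in number 2. By the levels that follow, control 2 was the lowest control for efflux and the highest control for synthesis. As a level, the median of the enzymes, each centred on its mean over the 6 libraries, was -0.51, 0.13 and -0.44 in controls 1 to 3 and 0.18, 0.48 and 0.19 with desIgf1. For the efflux genes it was 0.17, -0.36 and 0.10 in controls and between -0.07 and -0.002 with desIgf1. By these medians controls 1 and 3 were low for synthesis and above control 2 for efflux. The efflux median hides genes that went different ways, since Abcg1 was lowest in control 3, and with desIgf1 Abca1 still ranged from 33.4 to 48.9 CPM and Abcg1 from 43.5 to 61.2 CPM. The genes within a list share libraries and are not replicates, so no test is given for the gap.

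**Figure D4:**
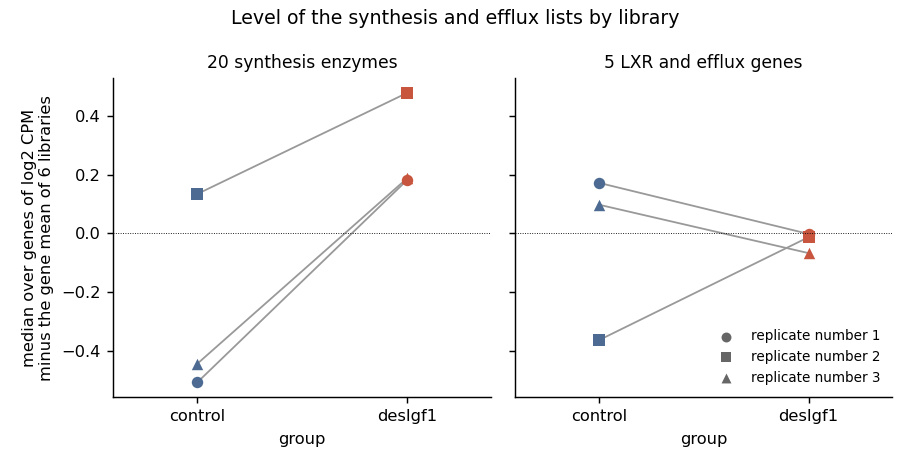
Median over the 20 synthesis enzymes (left) and the 5 LXR and efflux genes (right) of log2 CPM, each gene centred on its mean over the 6 libraries, with lines joining libraries of the same replicate number. All 3 lines rise for synthesis, from -0.51, 0.13 and -0.44 to 0.18, 0.48 and 0.19. The median of the LXR and efflux list goes down in numbers 1 and 3 and up in number 2. The exporters Abca1 and Abcg1 were both higher with desIgf1 in number 1, and Abcg1 also in number 3.

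Beyond the 33 genes, 45 further genes of the pathway were looked up, and 42 were tested. edgeR with the block called 1 higher and 0 lower, and without the block 0. DESeq2 called 1 higher (Gpr183) and 0 lower without the block, and with it 2 higher (Gpr183 and Vldlr) and 1 lower (Rxra). Over all genes edgeR with the block called 0.181% higher and 0.137% lower. DESeq2 called 0.819% and 0.671% without the block, and 3.07% and 1.58% with it. The counts of DESeq2 with the block, among 41 further genes with an adjusted p, are near those shares. The median log2 fold change of the 42 genes was -0.006. The gene called in edgeR was Gpr183, the receptor for dihydroxycholesterols that guides migrating lymphocytes (chromosome 14, 121952551 to 121965195). Its level was 38.9, 40.3 and 29.3 CPM in the controls and 80.8, 118 and 62.1 CPM with desIgf1, with every desIgf1 library above every control. Gpr183 rose 2.35-fold with the block (log2 1.23 ± 0.13, edgeR adjusted p = 0.0440, and 0.302 without it). The enzymes that make and convert its ligands, Ch25h, Cyp27a1 and Cyp7b1, were at or below 0.0413 CPM in all libraries and were not tested. Hsd3b7, which also converts these ligands, was at 10.7, 9.05 and 6.13 CPM in controls and 8.21, 8.71 and 4.69 CPM with desIgf1, lower in each number, with a blocked log2 fold change of -0.27 ± 0.16 that did not pass (edgeR adjusted p = 0.487).

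In the 13 genes of SREBP processing and sterol sensing 0 were called by edgeR or DESeq2, with or without the block. Rnf139, a ubiquitin ligase of the endoplasmic reticulum, was at 35.8, 40.02 and 30.5 CPM in controls and 47.7, 49.96 and 41.5 CPM with desIgf1 (blocked adjusted p = 0.170), and Srebf1, the paralog that drives fatty acid synthesis, at 261, 336 and 242 CPM and at 342, 338 and 343 CPM (0.346). In the 10 genes of the other isoprenoid branches 0 were called by either tool, and the dolichol synthesis genes Nus1 and Dhdds had blocked adjusted p-values of 0.396 and 0.412, with log2 fold changes of 0.21 and -0.18. Of the 7 LXR partners and targets edgeR called 0, and DESeq2 with the block called Rxra lower. Rxra, the retinoid X receptor that pairs with LXRs, was at 28.8, 32.8 and 60.8 CPM in controls and 13.7, 11.1 and 35.7 CPM with desIgf1, lower in all 3 numbers (log2 -1.13 ± 0.17 with the block, edgeR adjusted p = 0.0733, DESeq2 adjusted p = 5.69e-07). Without number 2 or 3 the blocked edgeR fit passed it (adjusted p = 0.000271 and 0.00239), and without number 1 it did not (0.0533). Of the 11 genes of sterol transport and ester turnover edgeR called 0, and DESeq2 with the block called Vldlr higher. Vldlr, a lipoprotein receptor, was at 6.03, 19.4 and 3.78 CPM in controls and 17.3, 36.9 and 8.50 CPM with desIgf1, with log2 differences of 1.52, 0.93 and 1.16 within numbers 1 to 3 (log2 1.203 ± 0.16 with the block, edgeR adjusted p = 0.0577, DESeq2 adjusted p = 2.91e-07). Without number 2 or 3 the blocked edgeR fit passed it (adjusted p = 0.000679 and 0.00431), and without number 1 it did not (0.124). In the fit on group alone the log2 fold change of Vldlr ran from 0.39 to 2.09 with 1 library left out. Gramd1c, which moves sterol from the plasma membrane to the endoplasmic reticulum, was at 0.614, 1.24 and 1.83 CPM and at 2.08, 2.78 and 2.63 CPM (blocked adjusted p = 0.213).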

How the data were processed

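RNA of sorted cells went into stranded libraries, 3 per group, per the labels' protocols. The deposited files give raw counts of reads per gene, as whole numbers that sum to a different total in each library. The submitters' processing notes name R 3.4.3, DESeq2 1.18.1, HTSeq 0.7.2, SAMtools 0.1.18, STAR 2.5.3 and Trim Galore 0.4.5, and the builds GRCm38 and mm10, without settings. The strand mode and annotation release were not given in the sources used here. Exons shared with another gene therefore leave a value uncertain (18.3% of the exon bases of Fdft1 are shared with Ctsb and 12.1% of those of Hmgcs1 with Gm48342, both on the opposite strand). The 5 summary lines of each file name no gene and were dropped. Reads overlapping no gene were 13.5 to 15.7% of those placed uniquely, and alignments that were not unique, which enter no count, took 46.4 to 48.7% of all entries.

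Symbols, positions and exon lengths came from GENCODE M21 (GRCm38). Genes were tested with edgeR 4.0.16 on the deposited counts, by a robust quasi-likelihood test with TMM factors and group as its term. Genes had to pass filterByExpr at a minimum count of 10. Benjamini-Hochberg adjustment ran over all 13846 tested genes, with a threshold of 0.05. Log2 CPM used a prior count of 2. A standard error is the log2 fold change divided by the square root of F, and intervals are 95% intervals. Alternatives were DESeq2 1.42.0, voom of limma 3.58.1, other size factors, no filter, each library left out, and the replicate number as a block, which leaves 2 residual degrees of freedom in place of 4. The labels do not say that a number marks a pair. The numbers were taken as pairs because all 3 same-numbered pairs of libraries had correlated deviations above 0.1 (0.59, 0.32 and 0.55). Scripts were tested on simulated data.

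Members, lists, motifs and tests were chosen with earlier results of these data known. Genes with a value for every library were those called in either edgeR fit, the regulators, Stard4, the LXR and efflux genes and the ends of the route, besides others shown for comparison. Of the other pathway lists, called genes were named, or otherwise the 2 with the smallest blocked p.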

Additional observations from a re-analysis of the deposited data

How the results depend on the processing

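edgeR without the block called 0 of the 33 genes with other size factors, without the filter on low counts and with any 1 library left out, as did limma voom. Over all genes these settings called 0, except 16 without the filter. DESeq2 called 202, the replicate block 44, DESeq2 with the replicate block 606, and the block less the libraries numbered 1, 2 or 3 called 72, 620 and 1069. Of the 33 genes these fits called 3, 4, 14, 2, 17 and 10 higher and 0 lower. Among the named genes the block in edgeR changed the calls of Hmgcs1, Mvd, Msmo1, Hsd17b7 and Gpr183 and no other call. The number of the 33 genes with every desIgf1 library above every control went from 11 to 19 without control 2, a setting added after the data were seen, while the share of all tested genes went from 7.31% to 13.5%. Leaving out a control cannot lower these values, and control 2 was picked for its high values in the enzymes.

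The median of the synthesis enzymes ran from 0.43 to 0.79 with 1 library left out, highest without control 2, and the gap between synthesis and efflux medians from 0.46 to 0.94. The efflux median, at -0.05, ran from -0.18 to -0.02 with 1 library left out. It was 0.0153 with the replicate block, 0.00882 with DESeq2 and the block, and 0.0796 with the block less number 3.

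Other signs near 0 also turned. Abca1 was at 0.10 in limma voom, 0.0656 with the replicate block, 0.0604 with DESeq2 and the block, 0.33 with the block less number 3, and -0.32 to 0.48 with 1 library left out. Mylip was at -0.0054 in limma voom, -0.27 with the block less number 2, and -0.15 to 0.23 with 1 library left out. With the block, Npc1 was at 0.0357 and 0.0247 less numbers 1 and 3, Lbr at 0.0785 less number 2 and Nr1h3 at 0.0664 less number 3. With 1 library left out, Npc1 ran from -0.0919 to 0.0244, Lbr from -0.17 to 0.0583, Abcg1 from -0.0468 to 0.25, Acat2 from -0.0227 to 0.63 and Ggps1 from -0.0011 to 0.23. The cause was not tested. Nr1h3 had 27 to 71 counts per library, which limits its precision.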
